A study of Mus musculus with 17 samples.

Results

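The 150 most abundant multi-exon transcripts of the mouse heart are described here across 17 RNA sequencing libraries of whole hearts. They were chosen from a table of 41096 genes by their level in the wild-type hearts alone, as fragments per base of exon and per fragment of the library, averaged over the 7 wild-type libraries. Of 25768 autosomal genes with 2 or more exon entries, 24146 lay outside 4 stretches that were left out (chromosome 5 from 60 to 110 Mb, chromosome 2 from 160 Mb on, chromosome 4 from 30 to 60 Mb and chromosome 19 from 20 to 60 Mb). A further 73 genes were left out because, in CPM of the plain library total without further scaling, every library of one genotype lay above every library of the other, and the first 150 of the remaining 24073 were taken. Their level in the wild type, and the overlap of the genotypes on that scale, follow from the choice and are no findings.

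All mice were of the C57BL/6 background and 4 months old, and no treatment other than the collection of flash-frozen hearts is given. Hearts came from wild-type mice (WT, 3 males and 4 females) and from mice whose genotype is given as bsg (5 of each sex). The series title speaks of a genetic cardiomyopathy, and the labels do not say which allele bsg stands for. The design text calls the samples biological replicates. Some libraries of a group share a number in their titles (title number), and no title number occurs in more than a single group. What a shared number means is not stated, and the tests below took every library as a separate replicate. In whole hearts, fewer cells of a type and less RNA per cell cannot be told apart.

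Heart muscle cells beat without pause, and they devote much of their messenger RNA to the filaments that contract, to the enzymes and carriers of mitochondria that supply ATP, to calcium handling and to the proteins that bind oxygen and fatty acids. A few such transcripts therefore fill much of a heart library, and a change in any of them alters the share left for the rest. The deposited table gives IDs and positions on the assembly C57BL_6NJ_v1 and does not pair the IDs with names, and 0 of them matched an entry of the name tables used here. Which member belongs to which of these functions, and whether markers of heart muscle or of other cell types are among them, was therefore not determined.

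The libraries held 13886399 to 17554850 fragments assigned to genes. The first principal component of all tested genes held 37.4% of the variance. On it, replicate 2 of the bsg females (74.9), of the WT females (51.8) and of the WT males (29.0) had the highest scores. These 3 are called the libraries that stood apart, and results that rest on them are given with and without them. At the low end, bsg male 3 (-31.4), bsg male 2 (-29.0) and WT male 3 (-25.8) lay at a like distance from 0 as WT male 2. They were left out only 1 at a time, so the choice of the 3 rests on the high end alone. Replicate numbers are only names.

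The most abundant member was MGP_C57BL6NJ_G0022426 (chr15:80014616-80061029, minus strand), whose 4 exon blocks add up to 1252 bp. It stood at 11567 FPKM (fragments per kilobase of exon, scaled to a common library total, mean of the WT libraries). Next came MGP_C57BL6NJ_G0026722 (chr2:120378528-120384792, minus strand, 1618 bp) at 7924 FPKM, MGP_C57BL6NJ_G0030470 (chr5:130527791-130542245, plus strand, 1950 bp) at 4812 FPKM and MGP_C57BL6NJ_G0029273 (chr4:137260699-137267567, plus strand, 823 bp) at 4503 FPKM. Levels thus fell steeply at the top of the order, by 4.54-fold between ranks 1 and 10.

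Ranks 5 to 10 were closer together, from 3421 to 2545 FPKM. They were MGP_C57BL6NJ_G0030482 (chr5:130936258-130986404, minus strand, 5751 bp, 3421 FPKM), MGP_C57BL6NJ_G0017625 (chr10:54165922-54174139, plus strand, 2480 bp, 3349 FPKM) and MGP_C57BL6NJ_G0035853 (chr9:115983371-116014251, plus strand, 1816 bp, 3051 FPKM). MGP_C57BL6NJ_G0021735 (chr14:51396719-51426831, minus strand, 6730 bp, 2956 FPKM), MGP_C57BL6NJ_G0034081 (chr8:47005541-47010028, minus strand, 2353 bp, 2553 FPKM) and MGP_C57BL6NJ_G0031991 (chr7:1470755-1477017, minus strand, 1928 bp, 2545 FPKM) followed. MGP_C57BL6NJ_G0021735, with 42 exon blocks, had the most of all members.

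From the first to the last member the level fell by a factor of 38.9. The last members were MGP_C57BL6NJ_G0024422 (chr17:78184912-78214106, plus strand) at 299.7 FPKM and MGP_C57BL6NJ_G0028091 (chr3:106540557-106570808, minus strand) at 297 FPKM. The first genes outside were MGP_C57BL6NJ_G0030931 at 296 FPKM and MGP_C57BL6NJ_G0033866 at 294 FPKM, so the line between member and non-member falls in a continuous run of levels. In all, 167 genes reached the level of the last member. Of those that did not become members, 5 were on the X chromosome, 7 were autosomal genes with 1 exon entry, 5 lay in the stretches left out, and 0 were removed because their genotypes did not overlap on the unscaled CPM.

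**Figure D1:**
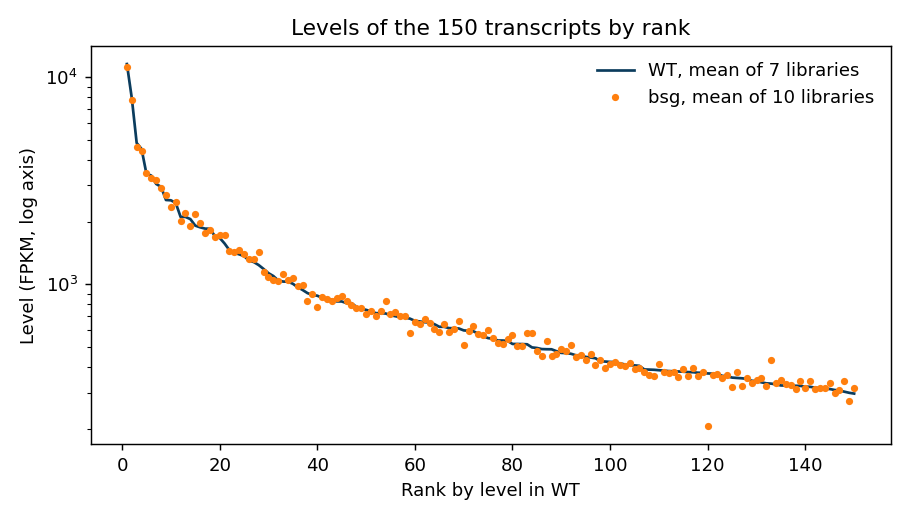
Level of each of the 150 transcripts (FPKM, logarithmic vertical axis) against its rank in the WT hearts, with the mean of the 7 WT libraries as a line and that of the 10 bsg libraries as points. The WT order falls from 11567 to 297 FPKM, and the bsg points lie close to it except at rank 120 (MGP_C57BL6NJ_G0034757), where the bsg point is far lower.

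Ranked over the 10 bsg hearts instead, 146 of the 150 would have been chosen, and ranked over all 17 hearts, 148. The rank of 107 members moved by at most 5 places between the WT and the bsg order (Spearman's rho 0.989 over the 150 members, a description across genes that share libraries). The largest move, 93 places, was that of MGP_C57BL6NJ_G0034757, which is described with the variable members. Between any 2 of the 17 libraries, rho of the members' level order was between 0.885 and 0.991 over 136 pairs. Leaving 1 WT library out of the ranking cost 0 to 3 members, and 6 different members were lost in one or another of these rankings, 3 of them without WT female replicate 3.

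Because the rule divides by exon length, short genes are favoured in it, and length is no independent feature. The members' exons added up to a median of 1739.5 bp, against 3855 bp in the 12670 other tested genes that the rule ranked, and 30.7% against 4.96% were shorter than 1000 bp. The shortest member was MGP_C57BL6NJ_G0033693 (chr7:151381944-151383447, minus strand, 362 bp, rank 26) and the longest was MGP_C57BL6NJ_G0016934 (chr1:144650228-144666073, plus strand, 7751 bp, rank 35). Within the members the order by level did not follow length (rho -0.06), whereas the number of fragments did (rho 0.72). Ranked by fragments without division by length, 99 of the 150 would have been chosen.

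The members were also compact on the chromosome, which the rule did not use as such, although a short exon length and a short span go together. They spanned a median of 8197 bp from start to end, against 25693.5 bp in the other ranked genes, and 84 of 150 (56%) spanned less than 10 kb, against 23.3%. The median number of exon blocks was 7, against 9. The 150 lay on all 19 autosomes, from 2 on chromosome 16 to 16 on chromosome 9, and 68 were on the plus strand. As a share of the genes ranked on a chromosome, they were most frequent on chromosome 10 (1.30%) and least frequent on chromosome 6 (0.230%). The closest pair of members, MGP_C57BL6NJ_G0018998 and MGP_C57BL6NJ_G0019001 on chromosome 11, were 12743 bp apart, and 2 pairs in all were closer than 100 kb. Other pairs lay somewhat further apart. Ranks 3 and 5 on chromosome 5 were 394012 bp apart. On chromosome 11, rank 59 lay 102450 bp from rank 72 and 426659 bp from rank 68. Such distances were not taken for the other ranked genes, so whether the members cluster was not tested. The span of 30 members was overlapped by that of another gene on the same strand, and whether their exons overlap was not examined. Only the one that overlaps MGP_C57BL6NJ_G0035562 had a high level itself (157 FPKM), and the highest of the others was 7.09 FPKM.

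The members held between 27.6% and 30.8% of all assigned fragments of a library. In the WT females they held 29.9%, 28.2%, 28.6% and 30.6% of the fragments (replicates 1 to 4), and in the WT males 29.5%, 29.8% and 29.97%. In the bsg females they held 29.6%, 27.6%, 30.03%, 30.8% and 29.9%, and in the bsg males 29.1%, 30.2%, 30.3%, 29.5% and 29.8%. The lowest shares were those of replicate 2 in the bsg females and of replicates 2 and 3 in the WT females, and all 4 groups overlapped. The share was 29.5% ± 0.824 (SD, n = 7) in WT and 29.7% ± 0.860 (SD, n = 10) in bsg. Without the 3 libraries that stood apart it was 29.7% ± 0.726 (SD, n = 5) and 29.9% ± 0.483 (SD, n = 9). Each difference of the genotypes is smaller than the spread between libraries of one genotype.

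After division by exon length, the share of the members in the summed levels was higher, 35.0% to 39.2% of a library. It was lowest in bsg female replicate 2 (35.0%) and WT female replicate 2 (36.9%), the same 2 libraries that have the highest scores on the first principal component. It was 38.2% ± 0.729 (SD, n = 7) in WT and 38.2% ± 1.22 (SD, n = 10) in bsg.

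**Figure D2:**
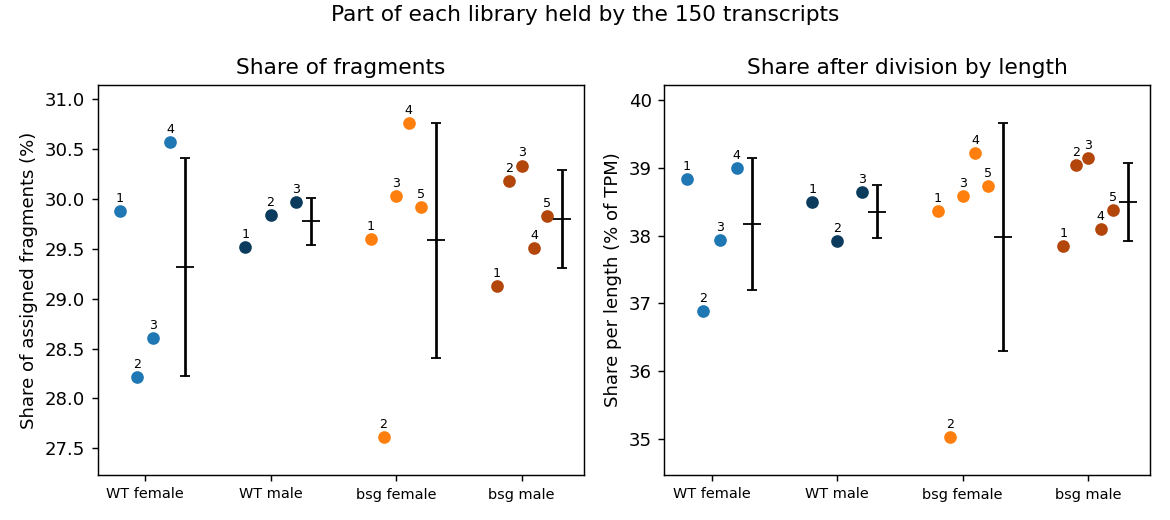
Share of each library held by the 150 transcripts, as a percentage of assigned fragments (left) and after division by exon length (right), by group; points are libraries with their replicate number, and the bar is the group mean with 1 SD. The vertical axes do not start at 0. bsg female replicate 2 has the lowest point in both plots (27.6% and 35.0%), and the 4 groups overlap.

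A small number of members made up much of this share. Ranks 1 to 10 held 9.42% to 11.2% of a library and 35.1% ± 0.774 (SD, n = 17) of the members' fragments. By mean share in WT, 16 members held 50% of the members' fragments. The first of these in WT were MGP_C57BL6NJ_G0021735 (1.99% of all fragments), MGP_C57BL6NJ_G0030482 (1.97%) and MGP_C57BL6NJ_G0022426 (1.45%), which together held 18.3% of the members' fragments. The first pair owe that place to length, since they have 6730 and 5751 bp of exon and stand at ranks 8 and 5 by level, while the third leads by level with 1252 bp.

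The levels below are CPM, counts relative to the scaled library total, which can be compared between libraries for 1 gene and not between genes. MGP_C57BL6NJ_G0022426 had 14574, 12784, 14656 and 14929 CPM in the WT females and 15214, 14576 and 14459 in the WT males. In the bsg females it had 13140, 11312, 14622, 15031 and 14450 CPM, and in the bsg males 14009, 14181, 15552, 13508 and 14795. The lowest values were those of bsg female replicate 2 and WT female replicate 2, and the groups overlapped. MGP_C57BL6NJ_G0030482, which has 5751 bp of exon, ran from 17439 to 21589 CPM over the 7 hearts of WT and from 18881 to 21391 CPM over the 10 of bsg, with full overlap of the ranges.

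The libraries of a group differed little in these transcripts. The spread, taken as the SD of log2 CPM within groups and pooled over the 4 groups, had a median of 0.10 on the log2 scale over the 150 members, and 68 members were below 0.1. Over all 15013 genes that passed the filter on low counts the median was 0.16, with 20.9% below 0.1. The 781 other tested genes with at least as many fragments as the lowest member had a median of 0.11. Of these, 44.0% were below 0.1, against 45.3% of the members. Counting alone would give the members a median SD of 0.011 and at most 0.027, the floor that depth sets. For the 781 others the median of that floor was 0.022, so they had fewer fragments and are not matched to the members in depth. The part of depth in these spreads was not tested. Without the 3 libraries that stood apart, the median was 0.097 over the members and 0.15 over all tested genes.

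Put as a ratio of the highest to the lowest of the 17 libraries, 124 members stayed within 1.5-fold and 145 within 2-fold, with a median ratio of 1.33 and a lowest of 1.15. The member with the smallest spread, MGP_C57BL6NJ_G0017663 (chr10:61635263-61662264, plus strand, rank 66, SD 0.051), had 1696, 1608, 1589.7 and 1667 CPM in the WT females and 1764, 1829.8 and 1740.3 in the WT males. In the bsg females it had 1800.1, 1726, 1777, 1848 and 1819 CPM, and in the bsg males 1616, 1806, 1700.4, 1814 and 1779. The lowest of these is WT female 3 and the highest bsg female 4, and the WT females lay below every WT male and every bsg female, while the bsg males overlapped all 3 other groups. MGP_C57BL6NJ_G0016507 (chr1:69680486-69711361, minus strand, rank 53, SD 0.052) came next.

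**Figure D3:**
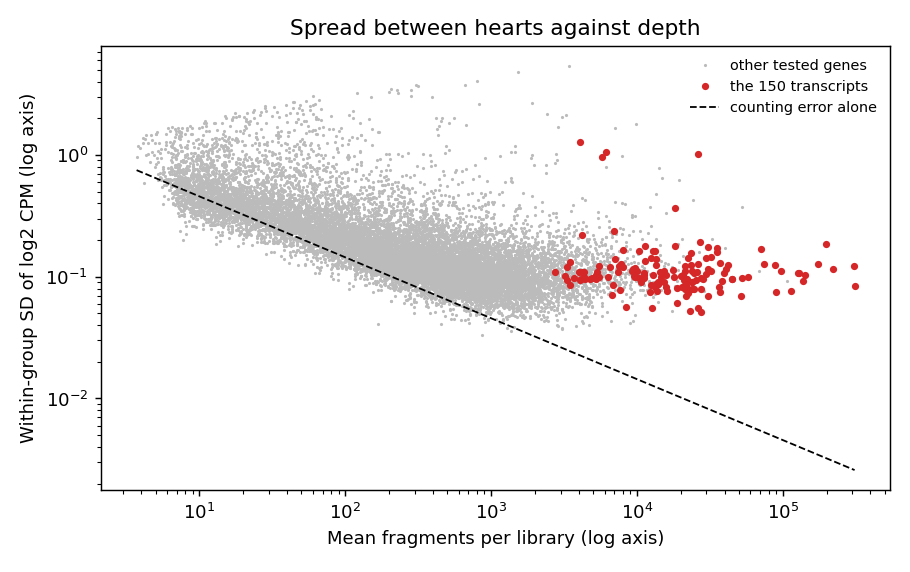
Spread within groups (pooled SD of log2 CPM, logarithmic vertical axis) against the mean number of fragments per library (logarithmic horizontal axis) for the 150 transcripts and all other tested genes. The dashed line is the SD that counting alone would give. Most members lie near 0.1, and 4 members lie above 0.5.

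The spread was above 0.5 on the log2 scale in 4 members (2.67%), against 10.2% of all tested genes. Among the 781 others with at least as many fragments as the lowest member it was 1.66%. The 4 members had SDs from 0.96 to 1.29 and from 590 to 1433 bp of exon, against a median of 1739.5 bp over the members. Such lengths are not particular to them, since 46 of the 150 members were shorter than 1000 bp. MGP_C57BL6NJ_G0018526 (chr11:31495031-31495985, plus strand, 812 bp, rank 148) had 85.0, 102, 475 and 176 CPM in the WT females and 210.2, 249.7 and 435 in the WT males. Values in the bsg females were 118, 98.4, 181, 289 and 29.9 CPM, and in the bsg males 153, 341, 471, 50.6 and 1076.5. Its range runs from bsg female replicate 5 to bsg male replicate 5, a ratio of 36.0, and all 4 groups overlapped.

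MGP_C57BL6NJ_G0029543 (chr4:157217801-157219158, plus strand, 865 bp, rank 16) is the one variable member high in the order. It had 736, 1651, 1538 and 1119 CPM in the WT females and 3242, 290.7 and 2829 in the WT males. Among bsg females it had 2185, 894, 2428, 1361 and 1013 CPM, and in the bsg males 2227, 1715, 2107, 541 and 2786. Its lowest value and its highest value were both from WT males.

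MGP_C57BL6NJ_G0018404 (chr11:3066789-3068934, minus strand, 590 bp, rank 59) had 173, 511, 192 and 322 CPM in the WT females and 696, 154 and 764 in the WT males. The bsg females had 473, 179.9, 539, 215 and 204.4 CPM, and the bsg males 454, 378, 396, 78.8 and 520.1. Its libraries ran much as those of MGP_C57BL6NJ_G0029543, on another chromosome: of the 5 lowest libraries of each, 4 were the same (WT female 1, WT male 2, bsg female 2 and bsg male 4), and of the 5 highest, 4 were the same (WT male 1, WT male 3, bsg female 3 and bsg male 5). Sharing was not particular to this pair. MGP_C57BL6NJ_G0018526 shared 4 of its 5 lowest libraries with MGP_C57BL6NJ_G0029543, and 3 of its lowest and 4 of its highest with MGP_C57BL6NJ_G0034757. MGP_C57BL6NJ_G0034757 and MGP_C57BL6NJ_G0018404 shared 1 and 1. Low values of MGP_C57BL6NJ_G0018404 and MGP_C57BL6NJ_G0029543 include WT male 2 and bsg female 2, which stood apart on the first principal component. WT female 2 was the highest of its group in both genes.

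MGP_C57BL6NJ_G0034757 (chr8:131818454-131821422, minus strand, 1433 bp, rank 120) owes its place to 1 library. It had 239, 172, 2562 and 113 CPM in the WT females, 187, 249 and 235 in the WT males, 253, 186, 271, 234 and 136 in the bsg females, and 314, 293, 323, 267 and 711 in the bsg males. WT female replicate 3 was over 3 times the next library, bsg male replicate 5. Ranked by the bsg hearts it stood at place 213, and without WT female replicate 3 in the ranking it was no member.

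The 4 variable members together made up 94.4% of the first principal component of the members' deviations from their group means, which held 44.9% of that variance. That component therefore describes these few genes and not the other 146.

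The fifth in spread, MGP_C57BL6NJ_G0022695 (chr15:103469277-103509753, plus strand, 2957 bp, rank 133, SD 0.37), showed separate levels within the WT hearts. It had 1339.6, 641, 1315 and 685 CPM in the WT females and 1427, 702 and 765 in the WT males. The bsg females had 1219.8, 1022, 1247, 1385 and 1264 CPM and the bsg males 1256, 1387, 1346, 1299.8 and 1333. Thus 4 WT libraries, of both sexes, were below every bsg library, and the other 3 were at or near the upper end of the bsg range. The low libraries include WT female 2 and WT male 2, which stood apart on the first principal component. They also include WT female 4 (score 6.5) and WT male 3 (-25.8), which were not among the 3 that stood apart.

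**Figure D4:**
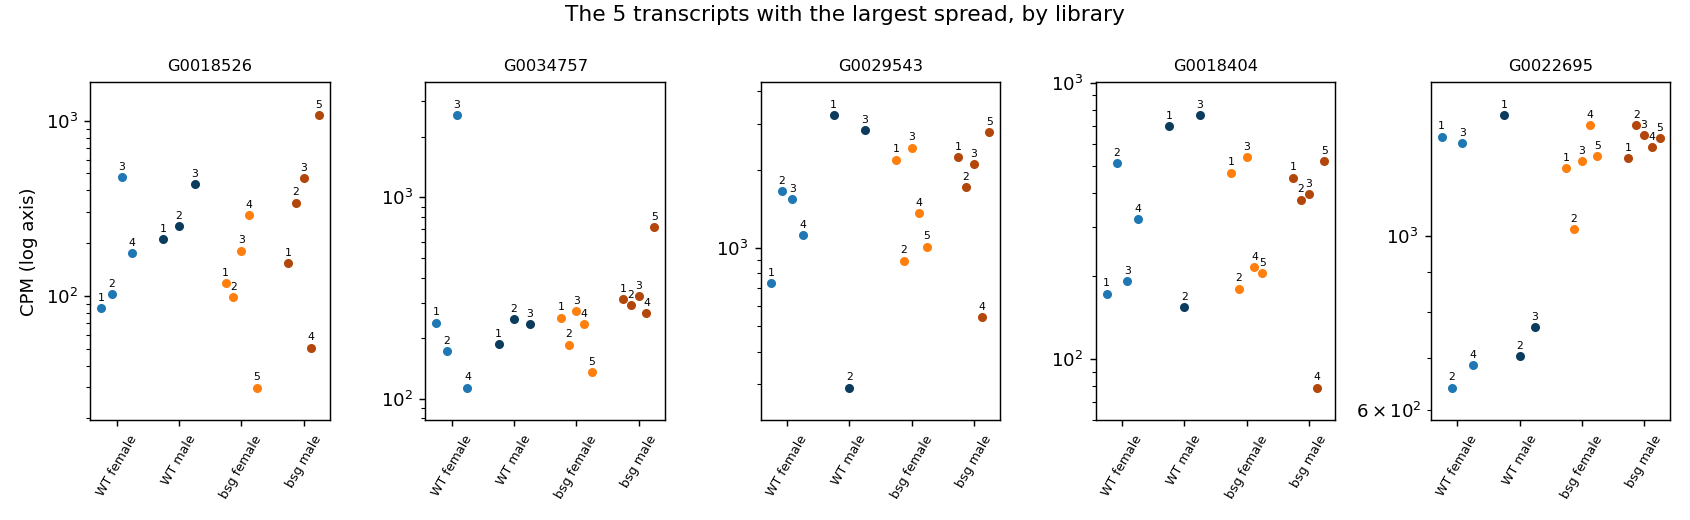
CPM (logarithmic axis, scaled separately in each plot) of the 5 transcripts with the largest spread in each of the 17 libraries, by group; numbers are replicates, and the IDs are shown without their shared prefix. A single WT female (2562 CPM) stands far above the rest for G0034757, and the 7 WT hearts fall into a lower 4 and an upper 3 for G0022695.

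A few libraries were shifted for most members at once. In WT female 2, 130 of the 150 members were below their group mean, in bsg female 2, 128, in bsg male 1, 127, and in WT female 3, 107. In WT female 4 only 27 were below it and in bsg female 4 only 28, while over all tested genes 48.5% to 52.7% were below it in every library. The median shift of the members was -0.14 in bsg female 2, -0.07 in WT female 2, -0.08 in WT female 3 and 0.13 in WT female 4 on the log2 scale. The group mean includes the library itself, so the deviations of a group balance out for each gene. Shifts of opposite sign within a group are therefore not independent. bsg female 2 was the lowest of the 17 libraries for 63 members, and WT female 4 was the highest for 49.

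In some libraries the members' deviations ran along exon length, also where most members were not shifted. Over the members, the deviation of a library from its group mean and exon length had a Spearman's rho of 0.46 in WT female 1, 0.46 in WT female 3, -0.35 in WT female 2 and -0.49 in WT female 4. It was 0.43 in bsg female 5, -0.35 in bsg female 3 and -0.35 in bsg male 1, and near 0 in bsg female 2 (-0.004). These are descriptions over genes that share a library, and their part in the comparisons below was not tested. Within a group these values are coupled too, since they rest on the same deviations.

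Males and females were compared within each genotype, a contrast that the choice of members did not use. In WT, 0 of the 150 members were called by edgeR's quasi-likelihood test at a Benjamini-Hochberg adjusted p under 0.05, beside 9 of 15013 tested genes, 0.0599%. In bsg, 0 members were called beside 14 genes, 0.0933%. At an unadjusted p under 0.05, the members counted 17 in WT (11.3%, against 5.4% of all tested genes) and 20 in bsg (13.3%, against 12.5%). DESeq2 called 0 members in WT, beside 0.273% of all tested genes, and 2 (1.33%) in bsg, beside 0.833%.

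The median difference was small, and towards males in both genotypes with all libraries. In WT it was 0.06 on the log2 scale over the members and -0.01 over all tested genes, and 112 of 150 members (74.7%) were higher in males, against 48.2% of all. In bsg it was 0.04 against -0.01, with 94 members (62.7%) higher in males against 47.0%. In both genotypes 80 members were higher in males and 24 lower. The same counts were not taken over all tested genes, so nothing is read from the 80 and the 24. The members share libraries and so are not separate pieces of evidence. WT females 2 and 3, the WT libraries with the most members below their group mean, are both among the females and share a title number. So is WT female 4, in which most members were above it. The median in WT was 0.03 without WT female 2 (95 members higher in males), 0.04 without WT female 3 (101) and 0.12 without WT female 4 (124). The median in bsg was 0.0069 without bsg female 2 (79 members higher), so its size rests on that library, and 0.02 with upper-quartile scaling, where that of all tested genes was -0.03. Without the 3 libraries that stood apart, 93 members were higher in males in WT and 80 in bsg. With libraries summed by title number, the median was 0.037 in WT (102 members higher in males) and 0.050 in bsg (106).

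In 17 members (11.3%) every WT male was above every WT female, against 2.72% of all tested genes, and in 0 members every WT male was below, against 2.45%. Without the 3 libraries that stood apart, an alternative chosen after the data were seen, the counts were 27 higher (18%, against 10.1%) and 10 lower (6.67%, against 9.37%). Without WT female 2, 17 were higher (against 4.8%) and 5 lower (against 4.22%), and without WT female 3, 21 were higher (against 4.89%) and 0 lower (against 4.18%). Without both, 21 were higher (14%, against 9.98%) and 11 lower (7.33%, against 9.35%). In bsg, 4 members (2.67%, against 1.81%) were higher and 2 (1.33%, against 1.29%) lower in every male.

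Among the members, MGP_C57BL6NJ_G0024972 (rank 51) had the smallest p towards males in WT. It had 994, 1076, 879 and 1129 CPM in the WT females and 1194, 1261 and 1314 in the WT males, so the sexes did not overlap. The log2 fold change was 0.30 (SE 0.08), and edgeR's adjusted p was 0.486. The next was MGP_C57BL6NJ_G0040233 (chr3:98497787-98498725, minus strand, rank 125), with 272, 253, 289 and 264 CPM in the WT females and 355, 294 and 327 in the WT males. Here too every male was above every female, by 0.27 (SE 0.08) on the log2 scale, with an adjusted p of 0.518 from edgeR, and in bsg the difference was 0.20 (SE 0.06) with an adjusted p of 0.249.

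Towards WT females, the smallest p was that of MGP_C57BL6NJ_G0034757, at -1.79 (SE 0.80) on the log2 scale and an adjusted p of 0.909 by edgeR. That value is set by WT female 3, the library that made the gene a member. Without WT female 3 the value was 0.35. MGP_C57BL6NJ_G0021506 (rank 11) followed, with 2486, 2261, 2571 and 2729 CPM in the WT females and 2417, 2267 and 2159 in the WT males. Its difference of -0.14 (SE 0.07) had an adjusted p of 0.938 by edgeR, and its sexes overlapped.

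In bsg, MGP_C57BL6NJ_G0030933 (chr6:22864067-22871713, plus strand, rank 141) had 665, 509, 549, 629 and 609 CPM in the females and 747, 693, 822, 749 and 812 in the males, without overlap. The log2 fold change was 0.37 (SE 0.10), with an adjusted p of 0.183 by edgeR and 0.0282 by DESeq2. In WT the difference was 0.13 (SE 0.12), and WT female 3 (784 CPM) was above all 3 WT males (654 to 675). MGP_C57BL6NJ_G0028414 (chr3:163034862-163058266, minus strand, rank 106) had 1447, 1423, 1314, 1429.6 and 1589 CPM in the bsg females and 1576, 1745, 1777, 1619 and 1565 in the bsg males. The highest female was above the 2 lowest males, and the log2 fold change was 0.20 (SE 0.05), with an adjusted p of 0.183 by edgeR and 0.0226 by DESeq2.

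Lower in bsg males were MGP_C57BL6NJ_G0019450 (chr11:104005190-104006332, plus strand, rank 41) and MGP_C57BL6NJ_G0027772 (rank 91). The first had 927, 792, 951, 1063 and 858 CPM in the bsg females and 679, 769, 699, 824 and 729 in the bsg males, so that 1 female lay below the highest male. Its difference of -0.31 (SE 0.09) had an adjusted p of 0.243 by edgeR, and that of MGP_C57BL6NJ_G0027772, -0.14 (SE 0.05), had an adjusted p of 0.320.

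How precisely a difference of the sexes was measured can be read from the intervals. For 146 of the 150 members, the unadjusted 95% interval of males against females lay within 1.5-fold either way, in WT and likewise in bsg. The other 4 were the variable members, MGP_C57BL6NJ_G0018526, MGP_C57BL6NJ_G0034757, MGP_C57BL6NJ_G0029543 and MGP_C57BL6NJ_G0018404.

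Whether the difference of the sexes depends on genotype was tested by the interaction. By edgeR, 0 of 150 members and 0 of 15013 tested genes (0%) were called at an adjusted p under 0.05, with 3 members (2%) against 5.17% of all tested genes at an unadjusted p under 0.05, and DESeq2 called 0 members, beside 0% of all tested genes. The smallest p of a member was 0.0203 (adjusted 0.888 by edgeR), that of MGP_C57BL6NJ_G0034757, whose value rests on WT female 3. Its choice as a member rests on that library too, so this p is not independent of the choice.

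bsg and WT are compared here as a description only, since the rule left out genes whose genotypes did not overlap on the unscaled CPM. In males, 0 members were called by edgeR at an adjusted p under 0.05, beside 82 of 15013 tested genes, 0.546%. In females, 1 member (0.667%) was called beside 270 genes, 1.8%. For the mean of the sexes, 3 members (2%) were called, against 4.26%. In 10 members (6.67%, against 5.04%) every bsg male was above every WT male and in 3 (2%, against 4.78%) below, and among females it was 3 (2%, against 2.49%) above and 1 (0.667%, against 2.17%) below. These counts are shown beside the background and nothing is read from them.

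Most members stood at nearly the same level in the genotypes. The differences of bsg and WT had a median of -0.02 on the log2 scale in males, and from the 10th to the 90th percentile they ran from -0.11 to 0.13. In females the median was 0.02 and the same range -0.09 to 0.13. The sign of the median in females depended on single libraries: it was -0.02 without WT female 2, -0.01 without WT female 3 and 0.07 without WT female 4, and -0.02 with libraries summed by title number. Over all 17 libraries left out in turn it ran from -0.02 to 0.07 in females and from -0.03 to -0.0017 in males, where it was nearest to 0 without WT male 3. Over all tested genes these ranges were -0.28 to 0.25 in males and -0.24 to 0.31 in females. Past 1.25-fold were 4 members in males (2.67%, against 15.6%) and 3 in females (2%, against 15.8%), and 0 were past it the same way in both sexes. All tested genes include those that the rule left out and many with fewer fragments. Their median SE was 0.115 in males and 0.106 in females, against 0.075 and 0.069 for the members. The 2 sets are therefore not alike, and nothing is read from the gap between them. By sign, 46 members were higher in bsg in both sexes, 46 were lower in both, and 58 had opposite signs. These signs were not counted over all tested genes, and nothing is read from them.

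**Figure D5:**
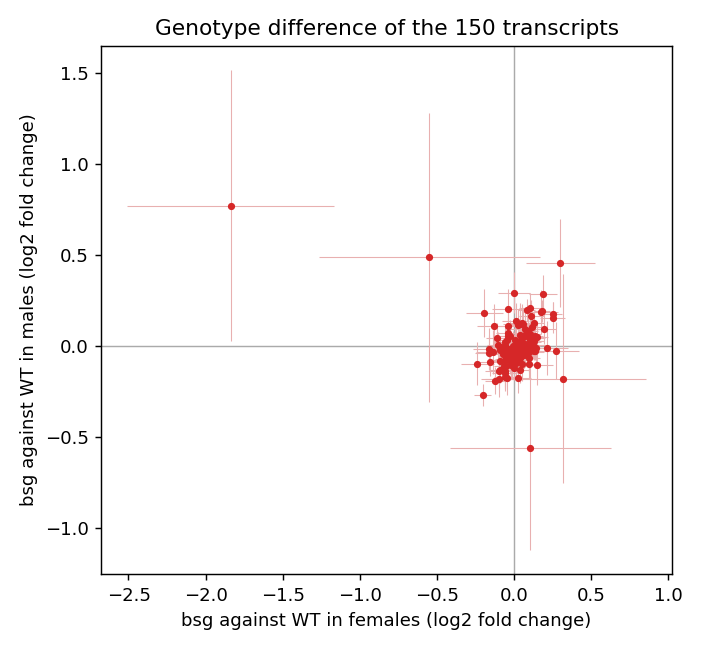
Log2 fold change of bsg over WT in males (vertical axis) against that in females (horizontal axis) for the 150 transcripts, with bars of 1 SE, as a description and no test. Most points lie near 0 on both axes, 46 are above 0 in both sexes, 46 below in both, and none passes 1.25-fold the same way in both.

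The member called in females was MGP_C57BL6NJ_G0034158 (chr8:71612060-71641079, plus strand, 6503 bp, rank 28). It had 8716, 7077, 8293 and 8437 CPM in the WT females and 9437, 9687, 8857, 9868 and 10610.0 in the bsg females, a log2 fold change of 0.25. In males it had 7665, 8362 and 7768 CPM in WT and 8713, 9056, 9391, 9142 and 8529 in bsg. Within each sex every bsg heart was above every WT heart, and the genotypes overlap only across the sexes, where 1 WT female (8716 CPM) was above 2 bsg males. The call was kept in 6 of 25 alternatives of the analysis, over which the log2 fold change ran from 0.18 to 0.29 and the adjusted p of edgeR or DESeq2 from 0.00467 to 0.218.

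On the scaled CPM printed here, the genotypes of 1 member do not overlap, MGP_C57BL6NJ_G0017933 (chr10:84685449-84690749, plus strand, rank 83), which is named after its values were seen. It had 1335, 1308, 1399.7 and 1233 CPM in the WT females and 1273, 1356 and 1345 in the WT males. The bsg females had 1496, 1436, 1404, 1499 and 1644 CPM and the bsg males 1505, 1603, 1409, 1504 and 1549.8. The gap between the genotypes is narrow, from WT female 3 at 1399.7 to bsg female 3 at 1404. On the unscaled CPM of the rule the ranges overlapped, with 1232 to 1382 in WT and 1361 to 1627 in bsg, and so it was kept. The mean log2 fold change was 0.19, and it is one of the 3 members called for the mean of the sexes, with MGP_C57BL6NJ_G0034158 and MGP_C57BL6NJ_G0032697.

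MGP_C57BL6NJ_G0016576 (chr1:78880030-78888280, plus strand, rank 84) had the second highest mean difference of the members, after MGP_C57BL6NJ_G0022695 described above. It had 1576, 1818 and 2274 CPM as the lowest, median and highest of the 7 WT hearts, and in bsg 2002, 1995, 2127, 2384 and 2264 in the females and 2091, 2183, 2056, 2183 and 2617 in the males. Only WT female 3, at 2274 CPM, reached the bsg range, and the mean log2 fold change was 0.24.

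Lower in bsg was MGP_C57BL6NJ_G0032697 (chr7:47849535-47853165, plus strand, 2357 bp, rank 70). It had 1433, 1277, 1293 and 1409 CPM in the WT females and 1428, 1457 and 1582 in the WT males. In the bsg females it had 1195, 1079.7, 1152, 1218 and 1233 CPM, and in the bsg males 1120.0, 1315, 1242, 1274 and 1233, so that only bsg male 2 lay above the lowest WT hearts. The mean log2 fold change was -0.24. MGP_C57BL6NJ_G0034757 had a lower mean still (-0.53), which turned to 0.54 without WT female 3.

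For 145 of the 150 members the unadjusted 95% interval of bsg against WT lay within 1.5-fold either way in males, and for 145 in females. The other 5 were in both sexes the 5 members with the largest spread.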

How the data were processed

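The authors deposited raw fragment counts per gene. Per the file headers, featureCounts 1.6.2 counted paired fragments at a minimum mapping quality of 10 and strand setting 2, on Ensembl release 109 of C57BL_6NJ_v1. GRCm39, Subread, featureCounts and DESeq2 are named in the submitters' processing notes. The aligner is not given in the sources used here. Columns were assigned by their header names, and 0 columns were unused.

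Members and lists were chosen with earlier results of these data known. The lists of gene symbols could not be applied, for want of names. Genes were named by rule: ranks 1 to 10, those next to the threshold, the extremes of spread, structure and genotype difference, the smallest p for sex in each direction, and the largest deviations in libraries that stood apart. MGP_C57BL6NJ_G0034158 and MGP_C57BL6NJ_G0017933, called between the genotypes, were added after their values were seen, as were the values in every library of MGP_C57BL6NJ_G0029543 and MGP_C57BL6NJ_G0018404.

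All 15013 genes passing filterByExpr (minimum count 10, minimum total 15) were fitted in edgeR 4.0.16 (R 4.3.3, TMM, 4 groups, 17 libraries, two-sided), with Benjamini-Hochberg adjustment. The SE was derived by dividing the log2 fold change, without its sign, by the root of the F statistic. Log2 CPM used a prior count of 2. Tested on simulated data for males against females in bsg over 15013 genes, the script recovered 74.75% of 2-fold and 59% of 1.5-fold changes. Alternatives were other scalings, no filter, DESeq2 1.42.0, libraries left out or summed by title number, fits of the compared groups alone, and other rankings. No batch is given in the labels, and the meaning of the numbers in the titles is not stated. Libraries that share a title number may not be independent, which was not tested.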

Additional observations from a re-analysis of the deposited data

Results flagged for a closer look

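Of 105 sets of 4 or 5 libraries examined for the members named and for their shares, 10 had a library far from the others of its group. Several of these members were named for large spread or deviations in the same libraries. That count therefore cannot be set against the 1 in 20 or so that chance alone gives. Over all 150 members, which were not chosen by spread, it was 27 of 450 sets, near 1 in 20. Among the WT females, MGP_C57BL6NJ_G0022426, the most abundant member, was lowest in replicate 2 (12784 CPM, others 14574 to 14929). MGP_C57BL6NJ_G0034757 was highest in replicate 3 (2562 CPM, others 113 to 239), as was MGP_C57BL6NJ_G0030933 (784 CPM, others 533 to 567). MGP_C57BL6NJ_G0016934, the longest member, was highest in replicate 4 (8350 CPM, others 7171 to 7300.2). Among the bsg females, MGP_C57BL6NJ_G0027772 was highest in replicate 2 (555 CPM, others 492 to 507), and the share of the members per length was lowest there (35.0%, others 38.4% to 39.2%). Among the bsg males, replicate 1 was lowest for MGP_C57BL6NJ_G0035853 (5721 CPM, others 5958 to 6028) and for MGP_C57BL6NJ_G0021735 (17954 CPM, others 20452 to 21378). Replicate 5 was highest for MGP_C57BL6NJ_G0016576 (2617 CPM, others 2056 to 2183) and for MGP_C57BL6NJ_G0034757 (711 CPM, others 267 to 323).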

How the results depend on the processing

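The counts of members called for males against females in WT (25 alternatives) and for the interaction (24) were 0 in each alternative run. For males against females in bsg, the count of 0 became 2 with DESeq2 (0.833% of all tested genes called) and ranged from 0 to 1 when 1 library was left out (1 without WT female 3, with 0.187% of all). For bsg against WT in males, 0 became 2 with DESeq2 (1.55% of all) and 1 without WT female 2 and bsg female 2 together (0.737%). For bsg against WT in females, 1 (1.8% of all) became 6 with DESeq2 (3.61%). It became 0 with no filter (0.766%), without WT female 2 and bsg female 2 together (1.65%), without the 3 libraries that stood apart (1.9%), with libraries summed by title number (0.382%), and with only the compared groups fitted (0.758%). Leaving out 1 library gave 0 to 4: 4 without WT female 4 (2.22%), 1 without WT female 1, bsg female 3 or bsg male 5, and 0 without each of the others. The cause was not tested. With 1 library left out, the log2 fold change of MGP_C57BL6NJ_G0034757 ranged from -2.15 to 0.35 for males against females in WT and from -0.71 to 0.54 for bsg over WT. Both positive values are those without WT female 3. Ranked by fragments, 150 genes held 33.3% of a library, against a median of 29.8%. Members higher in every WT male were 17 (11.3%, against 2.72% of all tested genes) and became 27 without the 3 libraries (18%, against 10.1%). Members lower in every WT male went from 0 (against 2.45%) to 10 (6.67%, against 9.37%). The median spread of the members was 0.088 to 0.11 over 25 alternatives. No paired analysis was possible because the labels give the groups no shared replicate numbers. For the interaction, a fit of only the compared groups was not run, since it needs all 4 groups. With 3 to 5 libraries a group, small differences may be missed.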
